A study of Rattus norvegicus with 17 samples.

Results

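The comparison described here sets the contralateral, non-occluded middle cerebral artery (MCA) of rats with a stroke against the MCA of rats that were never operated on. It used 12 of the 17 arrays of the series, 6 of non-occluded MCAs and 6 of control MCAs, chosen by their labelled group alone, and it was fitted across all 13231 genes with a probe set of their own. All rats were female Wistar rats, 12 weeks old by the methods, and females in proestrus were left out. In the stroke rats (F8, F10, F12, F15, F19 and F33) a filament, placed and later withdrawn under isoflurane, closed the MCA of the other hemisphere for 2 h while the rats were awake, with the common and external carotid arteries tied off for good, and the arteries were taken 3 h after reperfusion. The control rats (F4, F16, F21, F22, F26 and F36) had no surgery and all rats were killed with carbon dioxide. By the labels each array is of 1 rat, and each array of a stroke rat is of 1 MCA. Whether a control array held 1 MCA or both is not stated. No sham-operated group was among the arrays, so that the remote ischemia, the neck surgery and the anesthesia cannot be told apart.

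The non-occluded MCA keeps its own blood supply. What the blood carries through the whole animal, such as stress hormones from the adrenal gland and cytokines, reaches it as it reaches any other artery. Glucocorticoid hormones act on a receptor that waits in the cytosol on a scaffold of heat shock proteins, moves to the nucleus once bound and switches on a set of target genes. Cytokines of the interleukin-6 family act through receptors that share the gp130 chain and through the transcription factor STAT3, which drives acute-phase genes and its own inhibitor, Socs3. Metallothioneins are small cysteine-rich proteins that bind zinc, and their genes respond to zinc, to glucocorticoids and to interleukin-6. In bulk arteries, fewer cells of a type and less RNA per cell cannot be told apart.

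The metallothionein Mt2A gave the largest difference of any gene called, and Mt1a was the 15th largest increase. Their promoters are shown first because the group is known for a short element, the metal response element, to which a zinc-sensing factor binds. Below are 250 bases before and 50 bases after the start of each gene, 5′ to 3′, from RefSeq's rat assembly GRCr8, both on the minus strand, Mt2A at chr19:10838659-10838958 and Mt1a (Mt1 in RefSeq) at chr19:10832926-10833225. Capitals mark matches to the core of that element, TGCACNC or TGCGCNC, on either strand.
Mt2A: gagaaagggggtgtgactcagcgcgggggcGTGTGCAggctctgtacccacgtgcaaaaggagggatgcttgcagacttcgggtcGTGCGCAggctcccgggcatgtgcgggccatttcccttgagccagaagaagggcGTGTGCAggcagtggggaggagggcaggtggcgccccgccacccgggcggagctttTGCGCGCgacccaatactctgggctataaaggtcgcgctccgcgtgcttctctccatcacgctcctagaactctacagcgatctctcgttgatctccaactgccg
Mt1a: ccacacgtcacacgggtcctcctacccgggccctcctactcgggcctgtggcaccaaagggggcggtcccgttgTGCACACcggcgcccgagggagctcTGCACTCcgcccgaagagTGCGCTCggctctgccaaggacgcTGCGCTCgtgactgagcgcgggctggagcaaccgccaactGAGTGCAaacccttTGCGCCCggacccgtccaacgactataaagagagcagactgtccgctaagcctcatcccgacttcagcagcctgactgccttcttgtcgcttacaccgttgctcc
The Mt2A promoter held 4 matches and the Mt1a promoter 6. Of 33469 rat promoters of this length, 24.2% held at least 1 match, 0.439% held at least 4 and 0.0388% held at least 6. A match is a description of the letters and not a site shown to be bound.

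At an adjusted p under 0.05, the non-occluded MCAs had higher levels of 220 and lower levels of 256 of the 13231 genes, relative to control (limma with Benjamini-Hochberg adjustment over all probe sets). The background against which every list below is read is therefore 3.6% of genes called, 1.66% higher and 1.93% lower. Of all genes, called or not, 6086 (46.0%) had a difference above 0 and 7145 had one below 0. Increases were the larger changes: 32 of the 220 were at least 2-fold, against 1 of the 256 decreases, and the median log2 difference was 0.53 among the genes called higher and -0.37 among those called lower. The median over all genes was -0.01. For 416 genes (3.14%), the ranges of the 6 arrays of each group did not overlap. The balance of the directions depended on the scaling: 46.2% of the calls were higher here, and 62.7% after median centring of the arrays, with 293 higher and 174 lower. Leaving out non-occluded F15 took the counts to 131 and 129, and leaving out control F16 or control F22 took the genes called lower to 156 or 159.

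**Figure D1:**
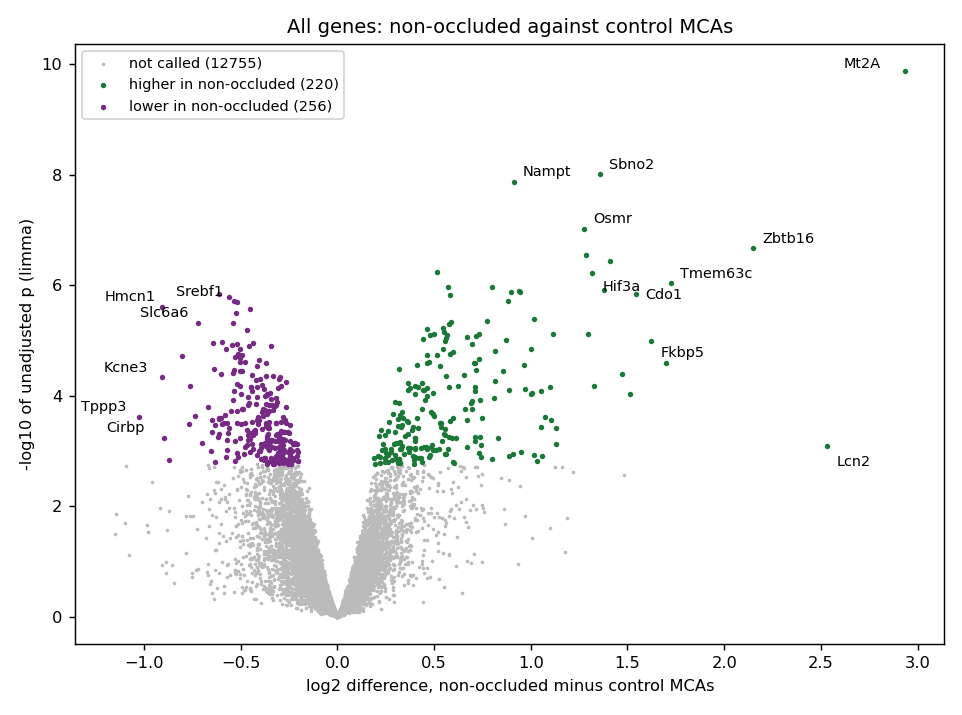
Each point is a gene, with the log2 difference between the 6 non-occluded and the 6 control MCAs on the x axis and -log10 of the unadjusted p from limma on the y axis. The 220 genes called higher reach 2.93 (Mt2A), while the 256 called lower reach -1.03 (Tppp3).

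The authors had quantile-normalized the arrays, which draws their medians together, so that the medians cannot show whether the groups are alike. Array medians ran from 7.36 to 7.41 in the non-occluded and from 7.36 to 7.49 in the control MCAs, a difference of -0.04 (exact two-sided permutation test, p = 0.123, n = 6 and 6). Of 7 listed smooth muscle markers, 5 were measured and none was called, with a mean log2 level of 11.40 to 11.76 in the non-occluded and 11.27 to 11.77 in the control MCAs (Acta2 and Cnn1 were not analysed here). The 10 measured endothelial markers, the 7 of pericytes and the 8 of fibroblasts held no called gene. The control arrays split by another cell type: in F4, F21 and F36 none of the 11 macrophage and microglia markers was above its control mean, and in F16, F22 and F26 between 9 and 11 were. The smooth muscle markers split the same arrays the other way, averaging 0.15 to 0.23 above the control mean in F4, F21 and F36 and between -0.28 and -0.14 in F16, F22 and F26. The first 3 carry the numbers 4, 3 and 2 at the start of their titles and the others 13, 15 and 20; the labels do not say what that number counts. With it as a covariate, 392 genes were higher and 573 lower, and they included all 220 and all 256 genes of the fit without it.

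Among the metallothioneins and zinc transporters, 2 of 19 measured members were called higher and 1 lower, with a median of -0.01. Mt2A lay between 9.49 and 10.37 (median 9.94) on the log2 scale in the control MCAs and between 12.40 and 13.24 (median 12.86) in the non-occluded MCAs. Every non-occluded array was above every control array by a wide margin. The difference was 2.93 ± 0.17 (SE), a 7.64-fold increase (adjusted p = 1.84e-06). These values are from the brighter of its 2 probe sets, which the files place on chromosome 20 although both carry the same transcript. The dimmer set, on chromosome 19 where the gene lies, gave 3.36 ± 0.25 (adjusted p = 2.92e-05), and near-identical copies could share the signal. Mt1a rose from a median of 10.01 (9.46 to 10.41) to 11.20 (10.77 to 11.87), again without overlap (1.30 ± 0.18, adjusted p = 0.00257). Its second probe set, placed on chromosome 17, gave 1.63 ± 0.23. Both genes kept their calls under every alternative run. Slc39a8, a zinc importer, was lower by a log2 difference of -0.65 ± 0.13 (adjusted p = 0.0177).

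Genes known as glucocorticoid targets had the highest median of the 33 lists of gene function. Marker lists and lists of genes named by the study are not among the 33, and all lists were chosen with earlier results of these data known. Of the 24 measured, 11 were higher and none lower, 23 had a difference above 0, and the median was 0.58 against -0.01 over all genes. Leaving out any 1 array left 9 to 11 of them called. Zbtb16, a transcriptional repressor, lay between 6.73 and 8.17 (median 7.07) in the control and between 9.11 and 10.00 (median 9.33) in the non-occluded MCAs, so that the groups were clearly apart (2.15 ± 0.22, adjusted p = 0.000494). Fkbp5, a co-chaperone that lowers the hormone affinity of the glucocorticoid receptor, went from a median of 7.73 (6.86 to 8.54) to 9.40 (9.11 to 9.76). The increase was 1.62 ± 0.24 (adjusted p = 0.0028), and the spread was wider in the controls (SD 0.63) than in the non-occluded MCAs (SD 0.22).

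Several of the other targets limit signaling or steer metabolism. Hif3a, a hypoxia-inducible factor subunit that can oppose the other alpha subunits, rose from a median of 6.88 (6.42 to 7.12) to 8.06 (7.89 to 8.64), or by 1.32 ± 0.15 (adjusted p = 0.000813). Tsc22d3, which encodes the anti-inflammatory protein GILZ, rose by 0.96 ± 0.16 (adjusted p = 0.00441), and Klf15, a regulator of amino acid and lipid use, by 0.67 ± 0.10 (adjusted p = 0.00257). In each of these the lowest non-occluded array was above the highest control array. Pdk4, the kinase that closes the pyruvate dehydrogenase complex to glucose carbon, rose by 1.10 ± 0.19 (adjusted p = 0.00754), although the array of non-occluded F33 (8.28) was within the control range of 7.50 to 8.32. The remaining members called were Sult1a1, a sulfotransferase (1.13), Arrdc3, an arrestin-like adaptor (1.05), Bcl6 (0.59), Nfkbia, the inhibitor of NF-kappaB (0.59), and Errfi1, an inhibitor of the EGF receptor (0.57). The calls of Errfi1 and Nfkbia were lost on leaving out 1 of 8 and 1 of 6 of the 12 arrays, with adjusted p up to 0.0726 and 0.0598. Errfi1 kept its call without control F21 or F22 or non-occluded F12 or F15, and Nfkbia without control F4, F21 or F22 or non-occluded F8, F10 or F33. The clock gene Per1, also a target of the hormone, was not called (0.49 ± 0.27, adjusted p = 0.362).

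Of the 13 genes for the receptor and its handling, 4 were higher (Fkbp5, Hsp90aa1, Hsp90ab1 and Ptges3) and 1 lower. The one lower was Nr3c2, the mineralocorticoid receptor, at -0.52 ± 0.10 (adjusted p = 0.014). The receptor itself, Nr3c1, named after its values were seen, gave -0.12 ± 0.07 (adjusted p = 0.413). Between 1 and 4 of the increases were called when 1 array was left out: 1 without control F16, F21 or F36 or non-occluded F12 or F15, and 2 without control F22 or F26. The highest adjusted p was 0.0704 for Hsp90aa1, 0.099 for Hsp90ab1 and 0.0743 for Ptges3, while Fkbp5 kept its call in each case.

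**Figure D2:**
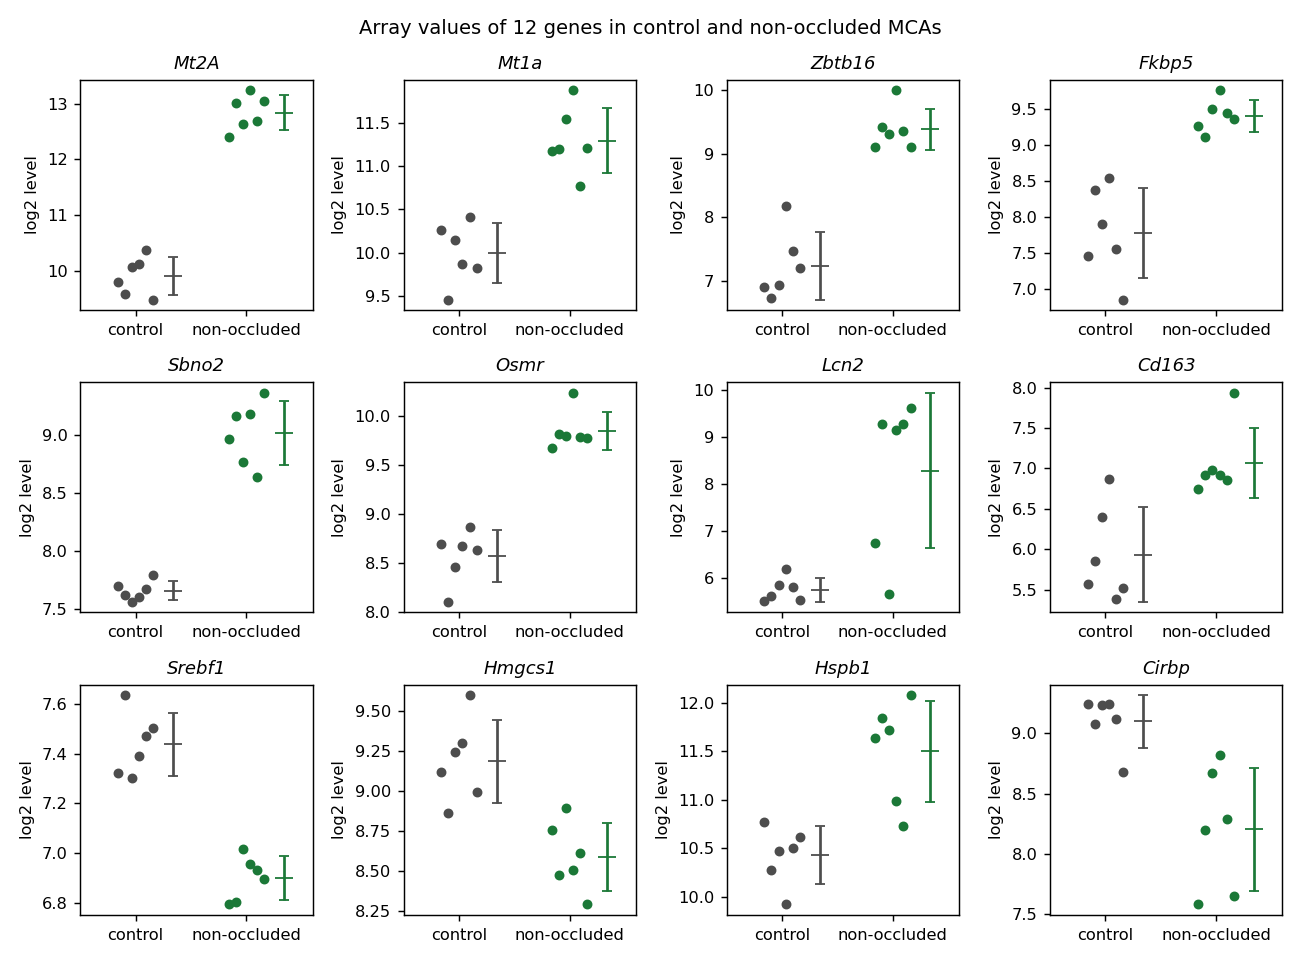
Log2 level of 12 genes on each of the 6 control (gray) and 6 non-occluded (green) arrays, with the group mean and SD beside the points. Mt2A, Mt1a, Zbtb16, Fkbp5, Sbno2, Osmr and Srebf1 do not overlap between groups, and Lcn2 falls into 4 high and 2 low non-occluded arrays.

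Receptors, mediators and targets of interleukin-6 type cytokines were also higher. Of 24 measured members, 9 were called higher and 1 lower, 19 had a difference above 0 and the median was 0.19. Osmr, the receptor chain for oncostatin M, went from a median of 8.66 (8.11 to 8.87) to 9.79 (9.67 to 10.24), an increase of 1.28 ± 0.12 (adjusted p = 0.000259). The receptor chains Il6st (gp130) and Il6r differed less, by 0.37 ± 0.09 and 0.43 ± 0.10 (adjusted p = 0.0376 and 0.0343). Downstream, Stat3 itself rose by 0.54 ± 0.08 (adjusted p = 0.00244). The smallest p of the list was that of Sbno2, a transcriptional co-regulator induced through STAT3, which lay within 7.56 to 7.79 in all controls and within 8.64 to 9.37 in all non-occluded MCAs. It rose by 1.36 ± 0.11 (adjusted p = 4.45e-05).

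The genes that restrain the pathway, here Socs3, Ptpn2 and Pias3, moved in both directions. Socs3, the feedback inhibitor of the receptor complex, rose from a median of 6.44 (6.26 to 6.59) to 7.27 (7.00 to 7.73), or by 0.87 ± 0.13 (adjusted p = 0.0028). Ptpn2, a phosphatase that acts on STAT proteins, rose by 0.57 ± 0.08 (adjusted p = 0.00257), and Bcl3, a nuclear partner of NF-kappaB, by 0.94 ± 0.11 (adjusted p = 0.00103). Pias3, an inhibitor of STAT3, was the member that fell, with a log2 difference of -0.42 ± 0.07 (adjusted p = 0.00754). Timp1, a protease inhibitor and common target of the family, was called as well (0.41 ± 0.08, adjusted p = 0.0171). On leaving out 1 array, the calls of Il6st and Il6r were lost in 8 and 7 of 12 cases; Il6st kept its call without control F22 or F26 or non-occluded F12 or F33, and Il6r without control F16, F22 or F26 or non-occluded F10 or F12 (adjusted p up to 0.0894 and 0.0838). Il6st also lost it under cyclic loess scaling.

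The list of acute-phase genes, which respond to these cytokines, held 4 calls among 17 measured members, all higher, and 16 members had a difference above 0. Lcn2, lipocalin-2, binds bacterial iron carriers and is strongly induced in inflamed tissue. On the control arrays it lay between 5.51 and 6.20. On the non-occluded arrays it was 9.15 in F10, 9.26 in F8, 9.28 in F15 and 9.61 in F19, but 6.74 in F12 and 5.67 in F33. The last value is within the control range. The occluded arteries of the same rats were split in the same way, with 7.65 in F12 and 7.76 in F33 against 9.45 to 10.35 in the other 3. The fitted difference of 2.53 ± 0.59 (adjusted p = 0.0334) therefore averages unlike animals, and its call was kept only when non-occluded F12 or F33 was the array left out (adjusted p up to 0.0818 otherwise). A2m, the protease inhibitor alpha-2-macroglobulin, rose by 1.10 ± 0.23 (adjusted p = 0.0178) from a median of 6.31 (6.01 to 7.05) to 7.45 (6.70 to 8.26). Pla1a, a phospholipase, rose by 0.85 ± 0.14 without overlap (adjusted p = 0.00518), and the metalloreductase Steap4 by 0.44 ± 0.11 (adjusted p = 0.0466). Steap4 kept its call only without control F26 or non-occluded F12 (adjusted p up to 0.105) and lost it on quantile normalizing the 12 arrays again. Without 1 array, 2 to 4 of these calls were made; the lowest count followed from leaving out control F4, F16, F21, F22 or F36 or non-occluded F8, F10, F15 or F19.

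Heat shock proteins were higher on most non-occluded arrays but not on all. Of 22 measured members, 4 were called higher and none lower, 20 had a difference above 0 and the median was 0.36. Hspb1, a small chaperone of actin filaments, rose from a median of 10.49 (9.92 to 10.77) to 11.68 (10.73 to 12.08), or by 1.07 ± 0.22 (adjusted p = 0.0165). Hsp90aa1 (0.71 ± 0.16, adjusted p = 0.0294), Hsp90ab1 (0.60 ± 0.15, adjusted p = 0.0468) and Hspa5, the chaperone of the endoplasmic reticulum (0.71 ± 0.16, adjusted p = 0.0268), were called with it. The rats differed: averaged over the 22 members, the arrays of F10 and F8 were 0.02 and 0.11 above the control mean, and those of F33, F15, F12 and F19 were 0.40, 0.53, 0.56 and 0.91 above it. The control arrays lay between -0.13 and 0.13. The count of calls rested on single arrays, at 1 without control F22 or F36 or non-occluded F12 or F15, 2 without control F16 or F21, and up to 6 without another array. The adjusted p rose to at most 0.0704 for Hsp90aa1, 0.099 for Hsp90ab1 and 0.0661 for Hspa5, Hspb1 kept its call whichever array was left out, and the equal-variance test called 0 of the 22. Hsp90ab1 also lost its call under cyclic loess and repeated quantile scaling.

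Cirbp, an RNA-binding protein induced by cold and lowered by warmth, went the other way. It was between 8.68 and 9.24 in the control MCAs and between 7.58 and 8.82 in the non-occluded MCAs, lowest in F12 (7.58) and F19 (7.65) and highest in F10 (8.82). The difference was -0.90 ± 0.20 (adjusted p = 0.0272), and the call was lost without control F16, F21, F22 or F36 or non-occluded F15 (adjusted p up to 0.0602). Rbm3, a related cold-induced protein named after its values were seen, gave -0.47 ± 0.14 and was not called (adjusted p = 0.0887). It was also lowest in F19 (9.75) and F12 (9.89) and highest in F10 (10.55).

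Genes of cholesterol and lipid synthesis had the lowest median of the 33 lists. Of 28 measured members, 6 were called lower and none higher, 25 had a difference below 0 and the median was -0.30. Both regulators that switch these genes on were lower: Srebf1 went from a median of 7.43 (7.30 to 7.63) to 6.91 (6.80 to 7.02), without overlap (-0.54 ± 0.07, adjusted p = 0.00116), and Srebf2 by -0.31 ± 0.06 (adjusted p = 0.0112). Among their targets, Hmgcs1, an early enzyme of the sterol pathway, differed by -0.60 ± 0.13 (adjusted p = 0.0192), and the fatty acid desaturase Fads1 by -0.52 ± 0.13 (adjusted p = 0.0382). Hmgcs1 lost its call without non-occluded F15 (adjusted p = 0.0513), and Fads1 lost it without any array other than control F4, control F26 or non-occluded F33 (adjusted p up to 0.0898). When 1 array was left out, 4 to 9 members were called.

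**Figure D3:**
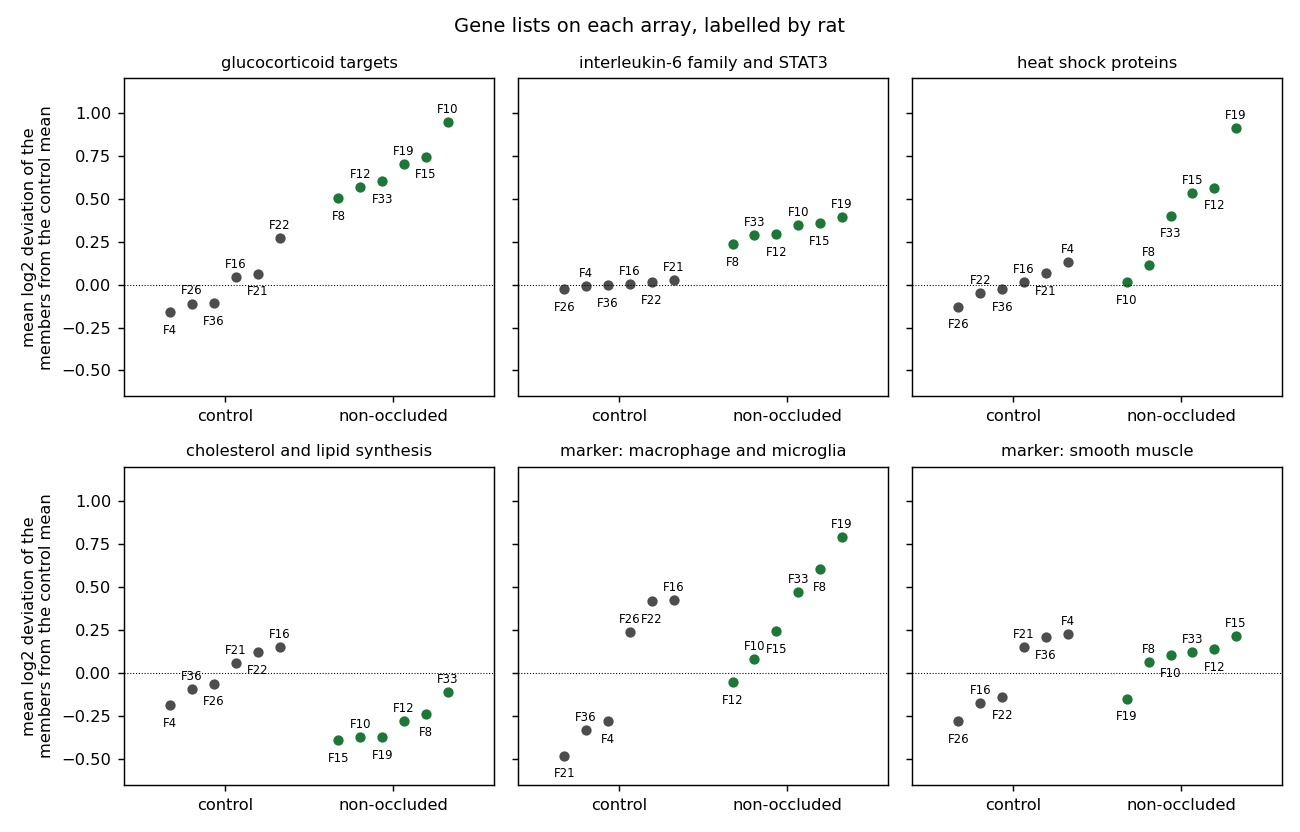
Mean log2 deviation of the measured members of a list from their control means, on each control (gray) and non-occluded (green) array labelled by rat. The glucocorticoid and interleukin-6 lists separate the groups on every array, heat shock proteins overlap in F10 and F8, and the macrophage markers split the controls into 3 low and 3 high arrays.

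Genes of fuel use were called in part. Of 26 genes of the FoxO and fasting response, 7 were higher and none lower, with 22 above 0 and a median of 0.23; Pdk4, Klf15 and Bcl6 among them are also in the glucocorticoid list. The other 4 were Insr, the insulin receptor (0.44 ± 0.09, adjusted p = 0.0134), Pik3r1, the regulatory subunit of its lipid kinase (0.46 ± 0.09, adjusted p = 0.00923), Foxo3 (0.40 ± 0.09, adjusted p = 0.0274) and Cpt1a, which admits fatty acids to mitochondria (0.45 ± 0.10, adjusted p = 0.0337). The list of fatty acid uptake and oxidation, in contrast, had 1 member higher (Cpt1a), 2 lower and a median of -0.10. The decreases were Acsl1, which activates fatty acids (-0.49 ± 0.10, adjusted p = 0.0134), and Hadh, an enzyme of beta-oxidation (-0.36 ± 0.09, adjusted p = 0.0468); the latter was called without control F4 or non-occluded F33 and in no other case of leaving out 1 array. Foxo3 lost its call without control F16 or F22 or non-occluded F8, F10, F15 or F19, and Cpt1a without any array other than control F21, control F26 or non-occluded F19 (adjusted p up to 0.0661 and 0.0689). Of 69 oxidative phosphorylation genes 1 was called, Atp5s (-0.45), and 54 had a difference below 0, with a median of -0.05. Of 72 cytosolic ribosomal proteins 1 was called, Rpl10 (0.30), and 58 had a difference above 0, with a median of 0.06. In both lists the calls were a smaller share than the 3.6% of all genes, and a shift of either list was not tested. Atp5s kept its call only without control F36 or non-occluded F10 or F33 and Rpl10 only without control F22 or non-occluded F15, so that both counts were otherwise 0.

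Enzymes that modify amines, sulfur compounds and drugs gave some of the largest increases, although the median of the 28 measured members was -0.07 and 19 were below 0. Fmo2, a flavin monooxygenase, rose from a median of 7.18 (6.69 to 8.46) to 9.13 (8.54 to 9.41), or by 1.70 ± 0.27 (adjusted p = 0.00414). Cdo1, which begins the breakdown of cysteine, rose from 7.45 (7.09 to 7.63) to 8.88 (8.37 to 9.52), or by 1.54 ± 0.19 (adjusted p = 0.00103). Sult1a1 (1.13) and Nnmt (0.44) were also among the 5 calls, none of the 28 was lower, and 4 or 5 were called whichever array was left out. Slc6a6, the taurine transporter, was lower by a log2 difference of -0.72 ± 0.10 (adjusted p = 0.00206), and all its non-occluded arrays (6.85 to 7.43) were below all control arrays (7.74 to 8.07). Taurine is a product of the route that Cdo1 begins.

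Other genes among the 15 largest increases do not belong together by known function. Tmem63c, a channel-like membrane protein, rose by 1.72 ± 0.20 (adjusted p = 0.00103) from a median of 8.62 to 10.19. Ibsp, the bone sialoprotein, rose by 1.51 ± 0.28 (adjusted p = 0.00867), and Gpr56, an adhesion G protein-coupled receptor, by 1.47 ± 0.25 (adjusted p = 0.00557). Gda, guanine deaminase, rose by 1.41 ± 0.15 (adjusted p = 0.000626), and the orphan nuclear receptor Nr4a3 by 1.33 ± 0.23 (adjusted p = 0.00754). RGD1359349, a locus known only by its number, was 1.38 ± 0.17 above control. Of the first 5, all but Nr4a3 were without overlap between the groups. Outside the first 15, Map3k6, a stress-activated kinase (1.29 ± 0.14, adjusted p = 0.000571), Nampt, which salvages nicotinamide for NAD (0.91 ± 0.08, adjusted p = 4.62e-05), and Runx1, a transcription factor (0.80 ± 0.10, adjusted p = 0.00103), were separated as clearly.

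Genes of the inflamed vessel wall were higher in part. Of 15 genes for leukocyte adhesion and endothelial activation, 5 were called, all higher, and the median was 0.22. Cd200, which restrains myeloid cells, rose by 0.90 ± 0.11 (adjusted p = 0.00103), Itga5, a fibronectin receptor chain, by 0.69 ± 0.10 (adjusted p = 0.00286), Tnfrsf1a, the receptor of tumor necrosis factor, by 0.58 ± 0.08 (adjusted p = 0.00214) and Icam1, on which leukocytes dock, by 0.38 ± 0.09 (adjusted p = 0.0342). Nfkbia was the other. Icam1 kept its call only without control F16, F21 or F22 or non-occluded F10 (adjusted p up to 0.0835). Without control F26 or F36 or non-occluded F12, F15 or F19, 3 of the 5 remained called. Chemokines and cytokines held 1 call among 15, Csf1, the growth factor of macrophages (0.31 ± 0.08, adjusted p = 0.0468), which was kept only without non-occluded F10 (adjusted p up to 0.0993). The monocyte chemokine Ccl2 gave 0.55 ± 0.28 (adjusted p = 0.311). The interferon list had 3 calls of 28, all higher, of which Ifitm3, an antiviral membrane protein, was the largest (0.58 ± 0.10, adjusted p = 0.00754), beside Stat2 (0.35) and Irf9 (0.33), which carry the interferon signal to the nucleus; without any array other than control F16 or non-occluded F12 only 1 of the 3 was called. Immediate early genes had 4 calls of 23, with Nr4a3 the largest, then Junb (0.80 ± 0.20, adjusted p = 0.0441), Maff (0.56) and Myc (0.32). Junb kept its call only without non-occluded F8 or F10 (adjusted p up to 0.101). The 4 calls became 1 without control F16 or F22 or non-occluded F12 or F15 and 2 without control F36 or non-occluded F19 or F33.

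Markers of macrophages were called in part. Of 11 measured, 2 were called higher: Cd163, a hemoglobin scavenger receptor of perivascular macrophages (1.13 ± 0.26, adjusted p = 0.0312), and Cd14 (0.58 ± 0.12, adjusted p = 0.0181). The median was 0.52, with 7 above 0 and 4 below, the latter including Cx3cr1, Aif1, Cd68 and Csf1r. The mean log2 level of the 11 ran from 7.11 to 8.02 in the control and from 7.54 to 8.39 in the non-occluded MCAs, so that the groups overlapped widely. Cd163 was above the other non-occluded arrays in F19 (7.94 against 6.75 to 6.98) and lost its call without control F4, F21, F26 or F36 or non-occluded F10 or F15 (adjusted p up to 0.0667). Of 12 neutrophil markers, 2 were measured and neither was called, and all 7 platelet markers were above 0 without a call, with a mean level of 6.05 to 6.31 in the control and 6.22 to 6.63 in the non-occluded MCAs. Gfap, of astrocytes, was called (1.03 ± 0.26, adjusted p = 0.0454) but only with all 12 arrays or without control F22 (adjusted p up to 0.0923 otherwise), and none of the 6 other astrocyte markers was. The part of these cells in the results above was not tested.

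For genes of the contractile artery, the share of all genes called, 3.6%, is again the background. Of 25 genes of the contractile apparatus, 1 was called, Rock2, a kinase that sensitizes the muscle to calcium (0.40 ± 0.09, adjusted p = 0.0274), and the median was 0.01; the call was lost without control F16 or F22 or non-occluded F8, F12 or F15 (adjusted p up to 0.0682). Myh11, the smooth muscle myosin, differed by -0.04 ± 0.07 (adjusted p = 0.805), and Myocd, which drives the contractile program, by 0.31 ± 0.17 (adjusted p = 0.339). Muscle proteins outside that list were called higher, Csrp2 by 0.82 ± 0.14 (adjusted p = 0.00688) and Myoz2 by 0.97 ± 0.17 (adjusted p = 0.00786). Of 23 potassium channel genes 2 were lower, Kcne3, an accessory subunit (-0.91 ± 0.15, adjusted p = 0.00605), and Kcnn3, a calcium-activated channel of the endothelium (-0.60 ± 0.09, adjusted p = 0.00283), both without overlap.

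Among 50 vasoactive receptors and mediators, 6 were called higher and 1 lower, with a median of -0.0023. Edn1, the vasoconstrictor endothelin-1, lay between 7.10 and 7.74 in the control and between 7.69 and 9.10 in the non-occluded MCAs (0.91 ± 0.22, adjusted p = 0.0389). The enzyme that activates it, Ece1, rose more evenly, from the range of 10.49 to 10.63 to that of 10.85 to 11.17 (0.46 ± 0.06, adjusted p = 0.00249). Ptgs2, the inducible cyclooxygenase (0.74 ± 0.17, adjusted p = 0.0324), and Htr1b, a contractile serotonin receptor (0.74 ± 0.18, adjusted p = 0.0422), were called with the purine receptor P2ry1 (0.43) and the beta-adrenergic receptor Adrb3 (0.31), and Agtr1a, the angiotensin receptor, was lower (-0.44 ± 0.10, adjusted p = 0.0243). Adrb3 and Agtr1a were dim, with control means of 5.51 and 6.01 against a median of 7.43 over all genes. Most of these calls were thin: without 1 array, 1 to 4 of the 6 increases were called, the fewest without non-occluded F15, 2 without control F21 or non-occluded F12, and 3 without control F26 or F36 or non-occluded F10, F19 or F33. Edn1 kept its call only without non-occluded F8 or F33, Ptgs2 without control F16 or F22 or non-occluded F8 or F10, Htr1b without control F4 or F26 or non-occluded F19 and P2ry1 without control F16 or F22 (adjusted p up to 0.0911, 0.078, 0.0932 and 0.0893). Adrb3 lost its call only without non-occluded F15 (adjusted p = 0.0538). Ece1 kept it whichever array was left out, and Agtr1a lost it without control F16, F21 or F22 or non-occluded F8, F10 or F19 (adjusted p up to 0.0567). Without control F26, 3 members of the list were called lower.

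**Figure D4:**
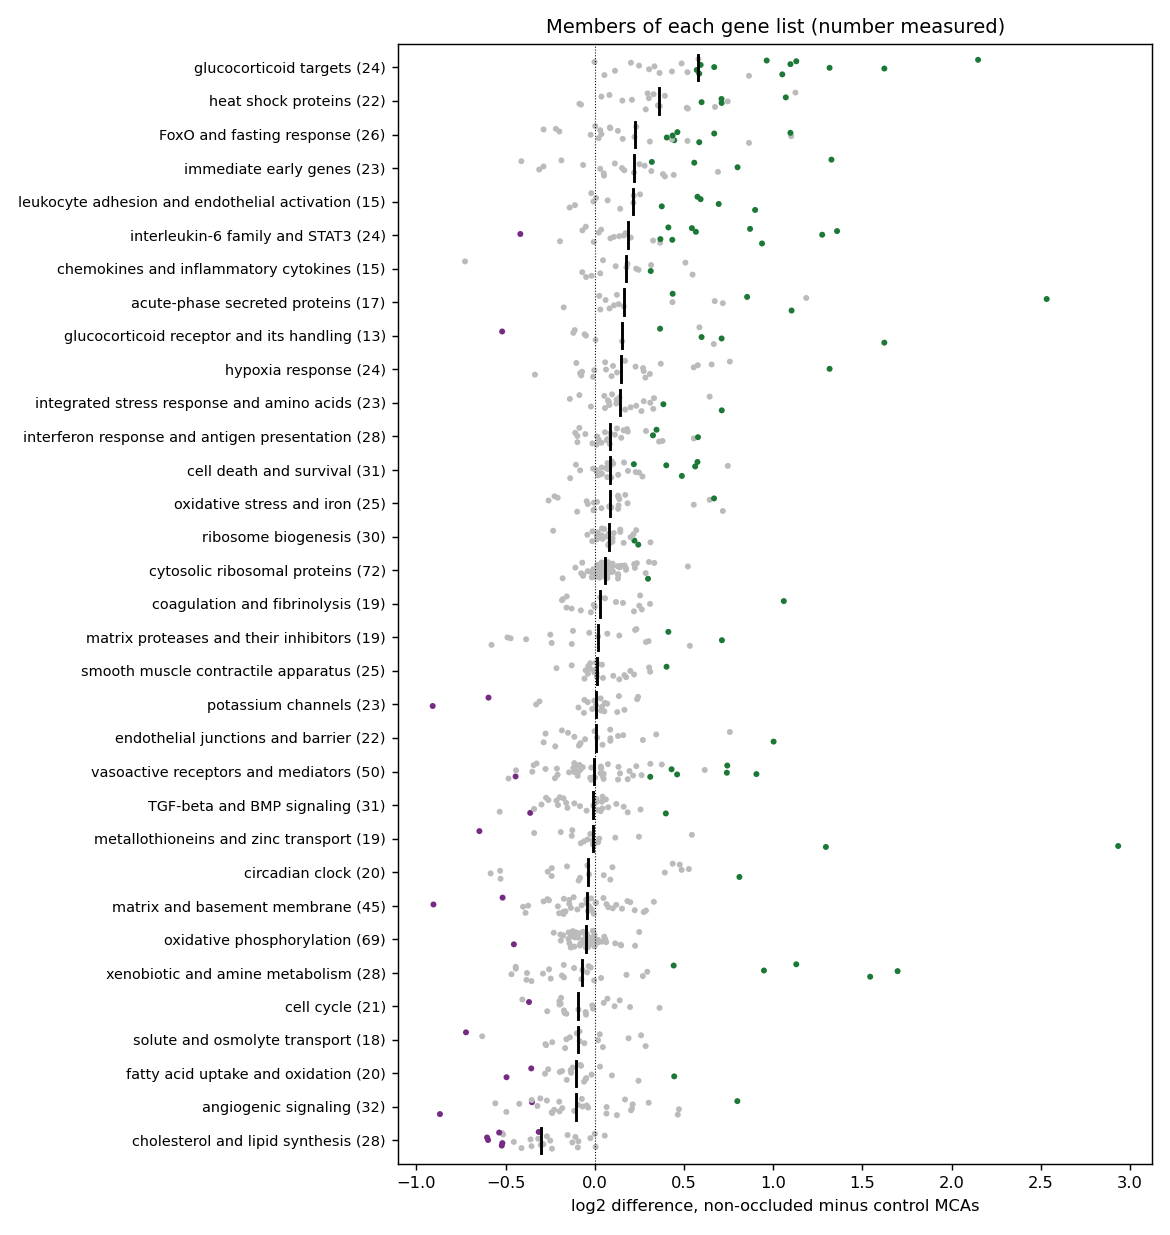
Log2 difference between non-occluded and control MCAs for every measured member of 33 gene lists, with the number measured in brackets and the list's median as a black bar. Green points were called higher, purple points lower and gray points were not called; the medians run from -0.30 for cholesterol and lipid synthesis to 0.58 for glucocorticoid targets.

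Genes of the matrix and the barrier are set beside the same background, 3.6% of all genes called, 1.66% higher and 1.93% lower. Of 45 matrix genes 2 were called, both lower: Hmcn1, an extracellular anchor protein, which lay between 7.21 and 7.45 in the control and between 6.08 and 6.70 in the non-occluded MCAs (-0.90 ± 0.12, adjusted p = 0.00134), and Tgfbi (-0.52 ± 0.09, adjusted p = 0.00736). Of 19 proteases and inhibitors, Adamts9, a matrix protease (0.71 ± 0.13, adjusted p = 0.00804), and Timp1 were higher. Cldn1 was the 1 call among 22 junction genes and rose from a median of 8.02 (7.55 to 8.46) to 8.96 (8.91 to 9.20), or by 1.00 ± 0.15 (adjusted p = 0.00314), while the main claudin of brain endothelium, Cldn5, gave 0.27 ± 0.10 (adjusted p = 0.171).

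The decreases were small and spread over many functions. Tppp3, which promotes tubulin assembly, had the largest, -1.03 ± 0.21 (adjusted p = 0.0165), and the next by size beside those above were Angptl2, a secreted inflammatory factor (-0.87 ± 0.22, adjusted p = 0.0452), Gfra3, a neurotrophic receptor chain (-0.80 ± 0.13, adjusted p = 0.00365), and Igfbp5, which binds insulin-like growth factors (-0.77 ± 0.16, adjusted p = 0.0192). Igf1, one of those factors, was lower too (-0.65 ± 0.14, adjusted p = 0.0238). Ldb2, Nos1ap, Susd4, Hfe2 and Tnmd completed the 15 largest, at -0.76, -0.73, -0.70, -0.67 and -0.65. Angptl2 kept its call only without control F4 or F21 or non-occluded F33, and Tnmd only without control F4 or F36 or non-occluded F19 (adjusted p up to 0.0965 and 0.0892). Igf1 lost its call without control F16 or F22 or non-occluded F10, F12, F15 or F19, and Susd4 without control F16, F22 or F26 or non-occluded F10 or F15 (adjusted p up to 0.0565 and 0.0682). The 6 leptomeningeal markers were all below 0 and none was called, with a mean level of 9.03 to 10.58 in the control and 8.86 to 9.83 in the non-occluded MCAs; their part in the decreases was not tested.

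The occluded artery of the same rats was measured on 5 arrays (F8, F10, F12, F15 and F33), which allows the remote and the occluded MCA to be set side by side against the same 6 control arrays. Since the non-occluded arrays enter both comparisons, the values are given for single genes and no overlap is read from them. The test of occluded against non-occluded called 33.2% of all genes. A2m differed from control by 1.10 in the non-occluded and by 4.16 in the occluded MCAs, with a difference between the arteries of 3.06 ± 0.24 (limma, adjusted p = 2.42e-06). Spp1, osteopontin, differed by 1.11 and 3.97, or by 2.86 ± 0.12 between the arteries (adjusted p = 8.62e-08). Socs3, Bcl3, Osmr and Sbno2 were above the non-occluded level by 2.59, 2.04, 1.92 and 1.41. Of the metallothioneins, Mt1a had a further 1.67 ± 0.17 in the occluded MCAs (adjusted p = 1.54e-05) and Mt2A 0.85 ± 0.13 (adjusted p = 0.000292).

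Other genes were not called between the arteries. Fkbp5 differed from control by 1.62 and 1.68, with 0.05 ± 0.10 between the arteries (adjusted p = 0.726), and Tmem63c by 1.72 and 1.73, with 0.01 ± 0.14 (adjusted p = 0.98). Neither p shows that the levels were equal.

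Of the 11 glucocorticoid targets called against control, 6 were higher in the remote than in the occluded artery, 2 were lower and 3 were not called between them. Over all genes, the occluded artery was lower for 16.2% and higher for 17.1%, and among the 220 genes called higher against control for 31 and 117. The non-occluded arrays that chose the 11 also enter this test, so the count is read no further and single genes are given. Pdk4 was between 6.95 and 8.69 (median 7.68) in the occluded MCAs, at the control level, and 1.22 below the non-occluded MCAs (SE 0.28, adjusted p = 0.00529). Hif3a was between 6.59 and 7.69 there, with a difference from the non-occluded MCAs of -1.07 ± 0.19 (adjusted p = 0.00101). For Sult1a1, Tsc22d3 and Klf15 that difference was -0.98, -0.89 and -0.88, and for Zbtb16 it was -0.79 ± 0.16 (adjusted p = 0.00253), with the occluded MCAs still 1.36 above control. Arrdc3 and Bcl6 were higher in the occluded MCAs, by 0.56 ± 0.19 (adjusted p = 0.0383) and 0.39 ± 0.09 (adjusted p = 0.00406). Errfi1 (0.36 ± 0.15, adjusted p = 0.0819) and Nfkbia (0.39 ± 0.15, adjusted p = 0.0679) were not called beside Fkbp5, but were so with rat as a random block (adjusted p = 0.0316 and 0.0287). Outside that list, Fmo2 (-0.82) and Cldn1 (-0.82) had the same order. The muscle proteins Csrp2, a LIM protein of smooth muscle, and Myoz2, a partner of calcineurin, were 0.82 and 0.97 above control in the non-occluded MCAs, and the occluded MCAs were below the non-occluded by -1.62 ± 0.13 (adjusted p = 2.42e-06) and -1.28 ± 0.16 (adjusted p = 5.86e-05). Htr1b differed by -1.45 ± 0.29 (adjusted p = 0.00194) and Fkbp3, a nuclear immunophilin, by -0.93 ± 0.05 (adjusted p = 2.17e-07).

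Among the genes that were lower in the remote artery, Ttc39b, which promotes breakdown of the sterol sensor LXR, was 0.51 below control in the non-occluded and 1.11 above it in the occluded MCAs (difference between arteries 1.63 ± 0.14, adjusted p = 6.33e-06). All 6 non-occluded arrays (6.66 to 6.94) were below and all 5 occluded arrays (7.82 to 8.83) above the control range of 7.13 to 7.59. Srebf1 was closer to control in the occluded artery (-0.26, against -0.54), with 0.28 ± 0.08 between the arteries (adjusted p = 0.0208). Nr3c2 and Slc6a6 were lower still in the occluded artery, by -0.96 and -0.91.

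**Figure D5:**
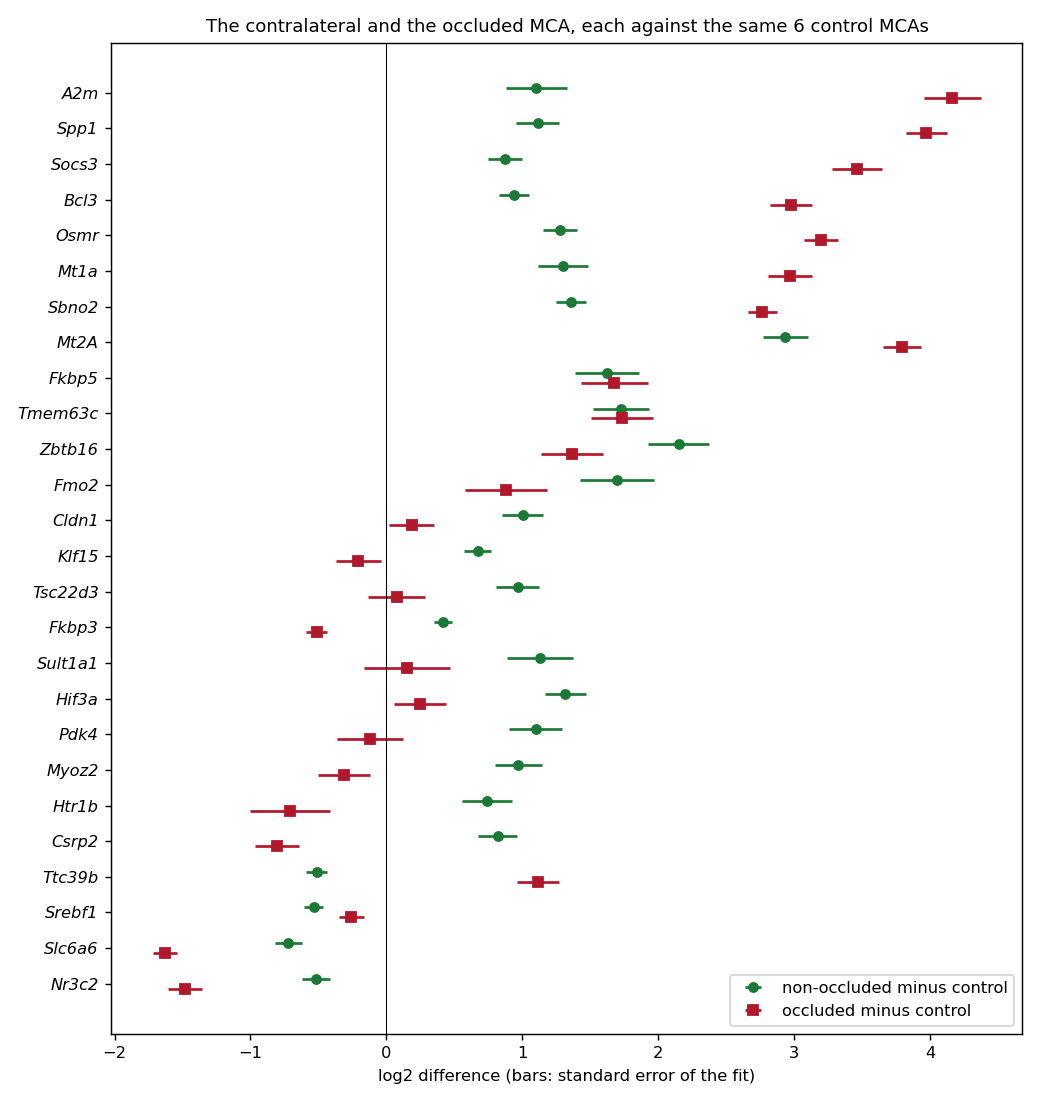
Log2 difference from the same 6 control MCAs for the non-occluded (green circles) and the occluded MCAs (red squares) of 26 genes, with the standard error of each fit. Fkbp5 and Tmem63c nearly coincide, A2m to Mt2A lie further right in the occluded artery, and Zbtb16 to Csrp2 lie further right in the non-occluded artery.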

How the data were processed

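RNA of the MCAs was hybridised to Affymetrix Rat Gene 2.0 ST arrays. The authors summarized and quantile-normalized the probe sets by robust multi-array analysis in Affymetrix Expression Console 1.1.2 and deposited log2 values of 13845 probe sets that had passed their filter on dim signals. The same table holds their t-test p, fold change, SAM score and q, which were not used. A gene was represented by its brightest probe set, 325 probe sets with several symbols were left out, and 18 of 23 symbols that a spreadsheet had turned into dates were recovered by accession.

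The test of non-occluded against control MCAs was that of limma (version 3.58.1, R 4.3.3; lmFit and eBayes, 12 arrays, Benjamini-Hochberg adjustment over all probe sets, threshold 0.05); figures and exact permutation tests used Python. On simulated data with known folds the fit was checked before use. The number of arrays limits the precision: the median standard error was 0.08. The 12 arrays of this test came from separate rats, so its p-values rest on the spread between animals. Occluded and non-occluded MCAs were compared in the same way, and the main fit left out the pairing of arteries within rats. The 5 rats that gave both arteries pair them, and the deviations of the arteries of a rat from the group means correlated at 0.17 to 0.49. The non-occluded and control MCAs came from different rats and could not be paired.

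The genes named were the 15 largest calls in each direction, the 4 smallest p and every call of each list, and the 8 largest differences between the arteries in each direction; not all are described, and some are not reported here. The members, lists and comparisons were chosen with earlier results of these data known. Alternatives covered scaling, variance, threshold, probe sets, the title number as covariate, SAM, an equal-variance test and leaving out each array.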

Additional observations from a re-analysis of the deposited data

Results flagged for a closer look

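For 109 genes, groups of 6 arrays were searched for an array whose gap to its nearest neighbour exceeded 0.625 of the group's range, which chance gives in about 1 group of 20. Of 218 groups, 18 had such an array. Among the non-occluded MCAs, F10 was highest for Zbtb16 (10.00, gap 0.657 of the range), Map3k6 (8.65, 0.667) and Osmr (10.24, 0.741). F19 was highest for Bcl3 (7.90, 0.778) and Cd163 (7.94, 0.803) and lowest for Pik3r1 (10.24, 0.722) and Myh11 (12.74, 0.652). F33 was highest for Nr3c2 (8.25, 0.632) and F12 lowest for Cd14 (7.88, 0.753). Among the control MCAs, F4 was highest for Hsp90aa1 (10.70, 0.693) and lowest for Cirbp (8.68, 0.703), Bcl3 (6.12, 0.786) and Cpt1a (8.60, 0.67). F26 was highest for Pias3 (8.11, 0.645) and lowest for Nampt (8.33, 0.653), Gpr56 (6.02, 0.692) and Htr1b (9.87, 0.712). F16 was lowest for Runx1 (7.50, 0.711).

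For 26 of the genes called in the non-occluded MCAs, those whose values in both arteries the report gives, the test of occluded against non-occluded MCAs was also past its threshold, so that the effect relative to the shared controls differed between the arteries. The difference, occluded minus non-occluded, was above 0 for A2m (3.06), Spp1 (2.86), Socs3 (2.59), Bcl3 (2.04), Osmr (1.92), Mt1a (1.67), Ttc39b (1.63), Sbno2 (1.41), Mt2A (0.85), Arrdc3 (0.56), Bcl6 (0.39) and Srebf1 (0.28). It was below 0 for Csrp2 (-1.62), Htr1b (-1.45), Myoz2 (-1.28), Pdk4 (-1.22), Hif3a (-1.07), Sult1a1 (-0.98), Nr3c2 (-0.96), Fkbp3 (-0.93), Slc6a6 (-0.91), Tsc22d3 (-0.89), Klf15 (-0.88), Fmo2 (-0.82), Cldn1 (-0.82) and Zbtb16 (-0.79).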

How the results depend on the processing

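The 220 higher and 256 lower genes became 109 and 67 by SAM at a q of 0, 88 and 65 at an adjusted p under 0.01, 85 and 28 with a minimum of 1.5-fold, and 392 and 573 with the title number as covariate. The cause of the last was not tested, and the others are stricter by construction. Leaving out 1 array gave 131 to 192 higher and 129 to 273 lower genes. No gene value changed sign among 2914 values of 109 genes under the alternatives. Several of these, such as SAM, the equal-variance test and the stricter thresholds, keep the fitted difference, so that no sign could change there. Of the 101 genes called among them, 67 kept the call without any 1 array, 39 lost it by SAM, 37 in the equal-variance test and 10 with the variance estimated from all 17 arrays. Cyclic loess ended 2 calls, repeated quantile normalization 3 and median centring 1.

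The occluded and non-occluded arteries of 5 rats are paired. Among the genes called against control, the test between the arteries called the occluded MCAs higher for 133 and lower for 148, for 149 and 160 with rat as a fixed replicate block, and for 152 and 168 with rat as a random replicate block. These counts share the non-occluded arrays with the comparison that chose the genes and are read no further. Of the 109 genes, 68 were called between the arteries without the block; the random block added 10 calls and the fixed block 13, and neither ended any. Among the added were Ibsp (adjusted p = 0.0854 without the block, 0.0278 random and 0.0038 fixed) and, with rat fixed alone, Lcn2 (0.495 and 0.00809). With 6 arrays a group, no difference smaller than 0.19 on the log2 scale was called.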

Other observations

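Further lists are given here with their counts of calls, to be read against the 3.6% of all genes called, 1.66% higher and 1.93% lower. Of 20 clock genes, Cry1, a repressor of the clock, was the 1 called (0.81 ± 0.15, limma, adjusted p = 0.00971), and the list's median was -0.04. Asns, which makes asparagine (0.71 ± 0.11, adjusted p = 0.00414), and Mthfd2, of mitochondrial folate metabolism (0.38 ± 0.08, adjusted p = 0.0227), were the 2 calls among 23 genes of the integrated stress response, and 20 of the 23 were above 0; without non-occluded F8 or F15 only 1 was called. Hif3a was the 1 call among 24 genes of the hypoxia response. Sod2, the superoxide dismutase of mitochondria, was the 1 call among 25 genes of oxidative stress and iron (0.67 ± 0.14, adjusted p = 0.0177).

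Cell death and survival held 5 calls among 31 genes, all higher, and 27 were above 0: Tnfrsf1a (0.58), Gadd45b (0.56), Bcl2l1 (0.49), Litaf (0.40) and Ripk1 (0.22). Without control F16, F26 or F36 or non-occluded F12 or F15, 3 were called. Ribosome biogenesis had 26 of 30 members above 0 and 2 calls, Ddx21 (0.24) and Nhp2 (0.22), of which 0 were left without control F16, F22 or F36 or non-occluded F8, F10, F12 or F15, and 1 without control F26 or non-occluded F33. In the lists of growth and vessel signaling, Acvrl1, an endothelial receptor of the TGF-beta family, was higher (0.40 ± 0.10, adjusted p = 0.0493) only with all 12 arrays or without control F22 or non-occluded F8 (adjusted p up to 0.102 otherwise). Bambi, a decoy receptor of that family, was lower (-0.36 ± 0.08, adjusted p = 0.0258), but not without non-occluded F8 or F10 (adjusted p up to 0.0517), nor with arrays centred on their median or normalized again. Among 32 angiogenic genes, Runx1 (0.80) was called higher, whichever array was left out, and Pdgfb (-0.35) was lower beside Angptl2. Neither decrease was called without control F16, F22 or F36 or non-occluded F8, F10 or F15, and 1 was without control F21 or non-occluded F19. Mcm5, a subunit of the replication helicase, was the 1 call among 21 cell cycle genes (-0.37 ± 0.09, adjusted p = 0.0327) and kept it only without control F4 or F26 or non-occluded F33 (adjusted p up to 0.0708 otherwise).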
